A study of Caenorhabditis elegans with 2 samples.

Results

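Chemical transmission at synapses of Caenorhabditis elegans depends on proteins that load transmitter into vesicles, prepare the vesicles at the membrane and fuse them when calcium enters. A SNARE complex of a vesicle protein and partners on the target membrane drives the fusion, and its assembly is guided by priming factors and started by a calcium sensor. The 10 genes described here encode such proteins: unc-64 (syntaxin), snb-1 (synaptobrevin) and ric-4 (SNAP-25) for the SNAREs, unc-18, unc-13, unc-10 and snt-1 for their regulators, and unc-17, unc-25 and eat-4 for the making or loading of acetylcholine, GABA and glutamate. They were chosen by name from 19973 annotated protein-coding genes, and 5 of the 4818 deposited intervals lay over their stop codons, 3′ untranslated regions (3′ UTRs) or coding exons by at least 10 nt.

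The material was RNA of mixed-stage N2 worms, the wild-type strain, with no treatment and no other genotype to set it against, so each value below comes from a single library without a replicate error. In 3′ RACE (rapid amplification of cDNA ends), an oligo-dT primer sets the 3′ edge of a product and a primer for the transcript sets the 5′ edge. Products of 6432 minipools were pooled and read by pyrosequencing. The file gives positions and no read counts, so the read depth is unknown and an interval says nothing of transcript abundance. Whether the edge of an interval is the edge of a product was not tested. Neuronal messages were not separated from those of other tissues, and whether these genes were all given a primer was not known here.

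Positions in the file differ from those of the annotation (assembly WBcel235) by an amount that changes along each chromosome. For each gene the shift was taken that laid the intervals of the surrounding 1 Mb best on annotated 3′ UTRs. It was between 3 nt (unc-17) and 121 nt (unc-64 and unc-25) at the 10 genes. Over 5 ways of estimating it, the widest range for a gene was 49 to 64 nt, at unc-10, and the narrowest were 119 to 122 nt at unc-64 and 16 to 19 nt at snb-1. The ranges given after distances below are over these 5 estimates and stand in for an error. They are narrow, because the estimates share intervals. Shifts with an overlap within 1% of the best ran from −6 to 30 nt at unc-13 and from 8 to 34 nt at snb-1. Lengths of intervals do not depend on the shift, and coordinates are printed as deposited, in the numbering of the file.

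**Figure D1:**
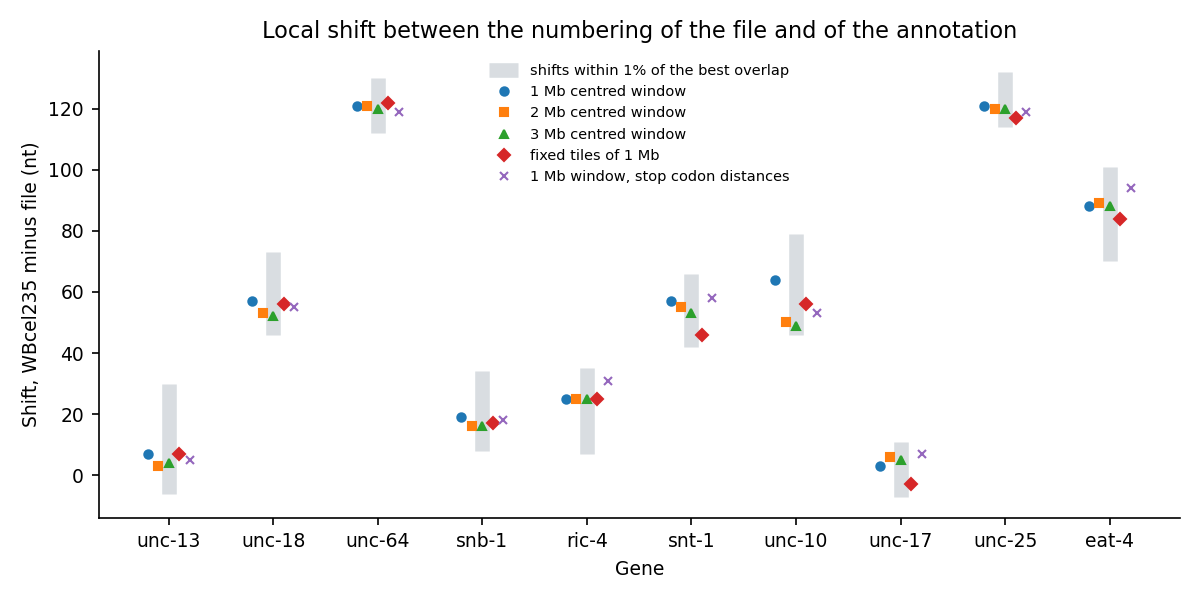
Estimated shift in nt (annotation minus file, vertical axis) at each of the 10 genes, with 1 marker for each of 5 estimates and a grey bar for shifts whose overlap lay within 1% of the best. The estimates lie near 120 nt at unc-64 and unc-25 and near 0 nt at unc-13 and unc-17.

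Intervals at the 3′ end were found for 5 of the 10 genes (50%, exact 95% interval 18.7 to 81.3, counting error only): unc-13, snb-1, ric-4, snt-1 and unc-25. Each had 1 interval, and each interval started a short way before the stop codon. No interval was found at the 3′ ends of unc-18, unc-64, unc-10, unc-17 and eat-4. Over all protein-coding genes, 21.2% had an interval at the 3′ end, and 16.4% had one that started at the stop codon, that is, at most 60 nt before its last base. The first of these shares lies inside the interval of the members' share and the second lies below it. All 10 members have a longest annotated 3′ UTR of at least 241 nt. In the ranges of 3′ UTR length that hold a member, 22.3 to 26.9% of all genes had an interval at the stop codon. Those shares lie inside the interval of the members' share. The members were chosen with earlier results of these data known, so this is a description and not a test.

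**Figure D2:**
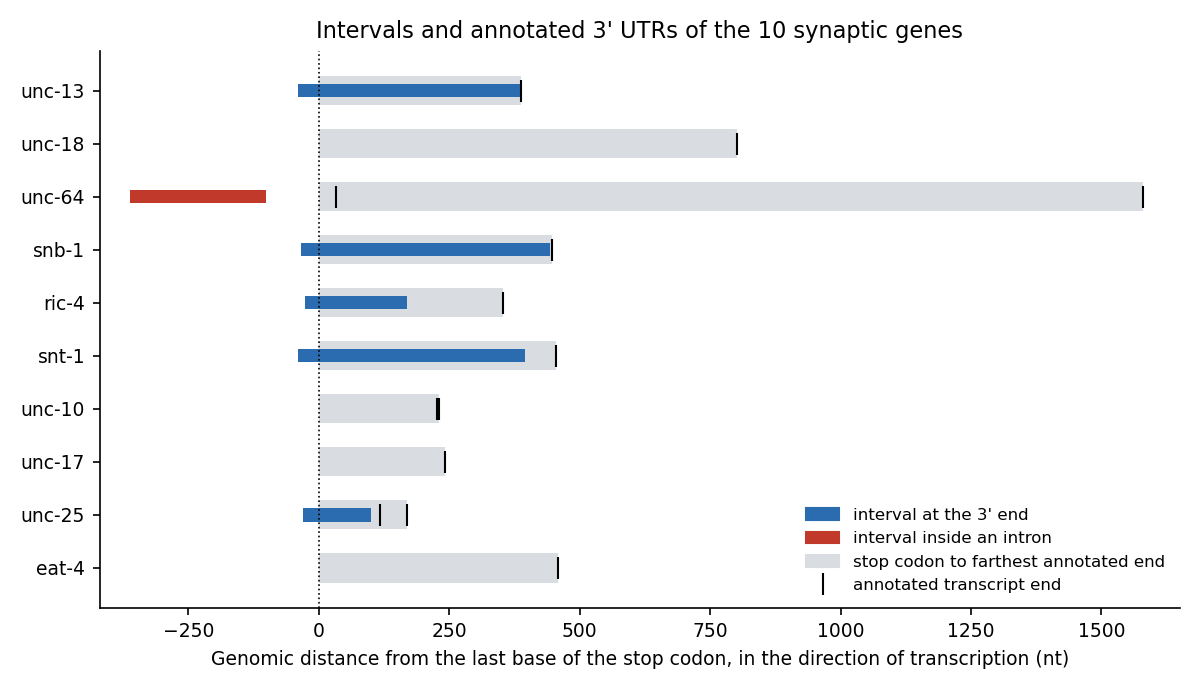
Intervals (blue at the 3′ end, red inside an intron) and the span from the stop codon to the farthest annotated end (grey, with ticks at annotated transcript ends) for the 10 genes, in genomic nt from the last base of the stop codon. The intervals of unc-13 and snb-1 fill that span, those of ric-4, snt-1 and unc-25 stop before its end, and the other genes have no blue bar. For unc-64 the upstream stop codon was used and for unc-10 the downstream one.

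Of the SNARE genes, snb-1 had the longest interval of the set. It encodes synaptobrevin, the SNARE of the vesicle membrane. The interval was 478 nt long (V, 6655547 to 6656024, minus-strand gene) and lay within the last exon. It started 34 nt (31 to 34) before the last base of the stop codon and held 443 nt (443 to 446) after it, which ended 4 nt (1 to 4) short of the only annotated transcript end. Almost the whole annotated 3′ UTR of 447 nt was thus covered.

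ric-4, which encodes the SNAP-25 SNARE of the plasma membrane, had a shorter interval. The interval of 196 nt (V, 10261289 to 10261484, minus strand) started 26 nt (26 to 32) before the last base of the stop codon. It held 169 nt (163 to 169) after it. The single annotated end of ric-4 models with a 3′ UTR lies 352 nt after the stop codon. The interval thus covered 48.0% of that distance and ended 183 nt (183 to 189) upstream. This distance is far larger than the range of the shift. No further interval lay over the remaining 3′ UTR of ric-4. Whether the edge of the ric-4 interval is the end of a transcript was not tested.

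unc-64, the gene of syntaxin, which pairs with the other SNAREs at the plasma membrane, had an interval within its bounds but not over an exon. That interval of 262 nt (III, 13281824 to 13282085) lay wholly in an intron. It ended 17 nt (16 to 19) before the last exon of the models with the upstream stop codon, and its other edge lay 1287 nt past the exon before. Of all intervals in the file, 53 (1.10%, 0.825 to 1.44) lay wholly inside introns of protein-coding genes. unc-64 has 2 annotated stop codons, and its annotated 3′ UTRs measure 17 nt at the shortest and 1580 nt at the longest. None of these was covered, and the next interval past its annotated end was 14870 nt away, at npp-18.

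Among the regulators, unc-13 and snt-1 had long intervals of nearly the same length. unc-13 encodes the factor that primes vesicles for release, and has 11 annotated transcripts and 1 annotated stop codon. Its interval of 428 nt (I, 7453683 to 7454110, plus strand) started 39 nt (39 to 43) before the last base of that stop codon and held 388 nt (384 to 388) after it. The single annotated end of a model with a 3′ UTR lies 387 nt after the stop codon, a distance of 1 nt (−3 to 1) from the edge of the interval. The annotated transcripts of unc-13 that have a 3′ UTR share this 3′ end, so the interval cannot separate them.

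snt-1 encodes synaptotagmin, the calcium sensor of the vesicle. The interval of 436 nt (II, 6815882 to 6816317, plus strand) started 40 nt (39 to 51) before the last base of the stop codon and held 395 nt (384 to 396) after it. It ended 59 nt (58 to 70) upstream of the annotated end, and so covered 87.0% of the 454 nt annotated after the stop codon. The difference is larger than the range of the shift at snt-1, which was 46 to 58 nt.

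The other regulators had none. unc-18 encodes a partner of syntaxin of the Sec1 and Munc18 family, and its annotated 3′ UTR of 801 nt is exceeded in the set only by that of unc-64. The longest interval in the file measured 839 nt, and the longest stretch after a stop codon was 674 nt among the intervals of other genes. The next interval past the annotated end of unc-18 lay 1016 nt away. unc-10 encodes RIM, a scaffold of the active zone, and its annotated 3′ UTRs range from 227 to 746 nt, the longest in a model with an earlier stop codon. The nearest interval beyond its end was 4405 nt away.

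Of the transmitter genes, unc-25 alone had an interval. It encodes glutamic acid decarboxylase, the enzyme that makes GABA. The interval of 130 nt (III, 12949563 to 12949692, plus strand) was the shortest of the 5. It started 30 nt (30 to 34) before the last base of the downstream stop codon and held 99 nt (95 to 99) after it. The nearest annotated end lies 117 nt after that stop codon and another 169 nt after it. The interval ended 18 nt (18 to 22) upstream of the nearer. The annotated 3′ UTRs of unc-25 measure 169 nt at the shortest and 316 nt at the longest, so the nearer end belongs to a model with the upstream stop codon. The form with the downstream stop codon ends at 169 nt, and the interval fell well short of that end. Transcripts with the upstream stop codon also run through this exon, so the interval cannot be given to either form.

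unc-17, the vesicular acetylcholine transporter gene, has 1 annotated 3′ UTR of 241 nt, the shortest of the set among longest annotated forms, and was not covered. It shares its locus and first exon with cha-1, the gene of choline acetyltransferase, and cha-1 had no interval at its own 3′ end either. The closest interval past unc-17 lay 18625 nt away. Around unc-17, 15 of 191 genes within 0.5 Mb on either side (7.85%) had an interval at the stop codon, the lowest local share of the 10 genes, against 65 of 175 (37.1%) around unc-64. eat-4, the vesicular glutamate transporter gene, has a 3′ UTR of 458 nt. An interval of 159 nt (III, 9141808 to 9141966) lay 68 nt past its annotated end. That interval covered 144 coding nt and 15 nt after the stop codon of ZK512.2, a gene on the opposite strand. Without any shift it would have covered 20 nt of eat-4, so the count of genes with an interval rests on the correction there.

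The 5 starts lay 26 to 40 nt before the last base of the stop codon. For the 3050 intervals at the stop codon of exactly 1 other gene, the median start was 31 nt before it and the interquartile range 26 to 38 nt. The starts of snb-1, ric-4 and unc-25 fell in that range, and those of unc-13 and snt-1 at 1 and 2 nt beyond it. The other intervals were kept only if they started at most 60 nt before that base, and the shift was fitted to 3′ UTRs. Nearness of the starts to the stop codon was thus in part set by the rule. None of the 10 genes had an interval over coding exons away from the 3′ end, and 3.4% of all protein-coding genes had one. At so low a share, finding none among 10 genes does not set the members apart.

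The ends were spread widely. The median interval length was 428 nt over the 5 genes, against 185 nt over the 3050 others (interquartile range 139 to 265 nt). After the stop codon the 5 held a median of 388 nt, and the interquartile range of the others was 107 to 232 nt. By percentile of this stretch among the others, snb-1 lay at 97.9, snt-1 at 95.8, unc-13 at 95.2, ric-4 at 57 and unc-25 at 20.3. Thus snb-1, snt-1 and unc-13 lay in the upper tail, and unc-25 below the interquartile range. The annotated 3′ UTRs of these genes are themselves long, with a median longest form of 450.5 nt over the 10 genes, against 131 nt over the 16794 genes with one. In genes whose longest annotated 3′ UTR is over 300 and up to 500 nt long, as in all 5 genes with an interval, the 494 other intervals held a median of 303 nt after the stop codon (183 to 358.75 nt). unc-25 falls in that range by its longest form of 316 nt. Its 99 nt follow the downstream stop codon, where the annotated form has 169 nt. These percentiles describe 5 genes and are not a test.

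**Figure D3:**
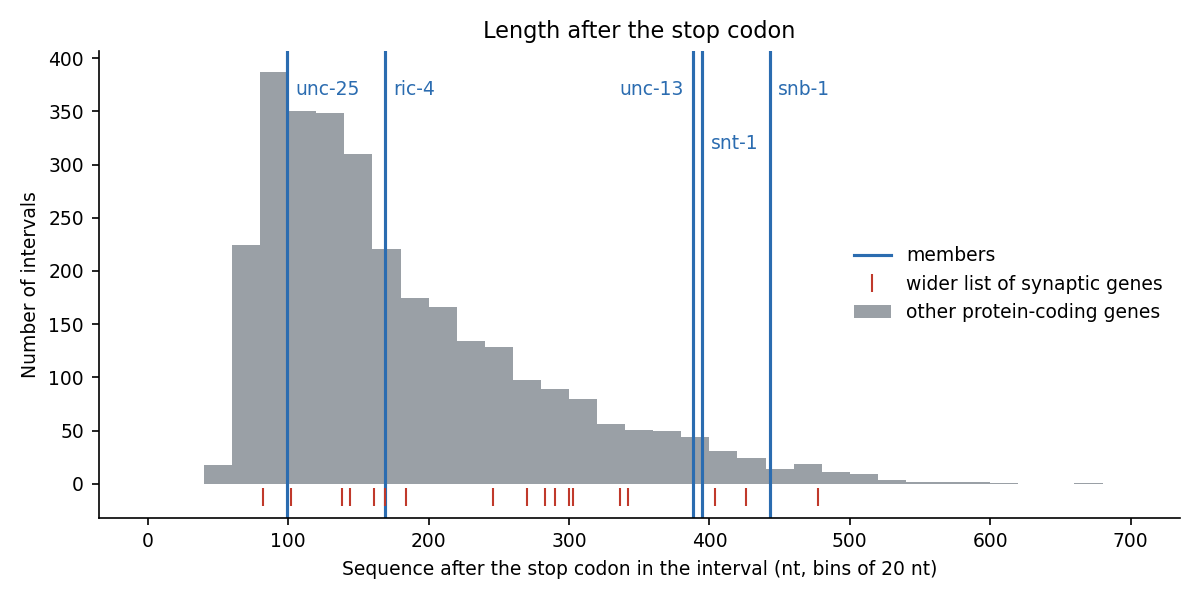
Number of intervals (vertical axis) by nt after the stop codon (horizontal axis, bins of 20 nt) for other protein-coding genes, with blue lines for the 5 synaptic genes and red ticks for the wider list of synaptic genes. The lines of unc-13, snt-1 and snb-1 stand in the right tail, at 388, 395 and 443 nt.

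Set beside the annotation, 3 of the 5 intervals (unc-13, snb-1 and unc-25) ended within 20 nt of an annotated end, and 2 (ric-4 and snt-1) ended more than 20 nt upstream. Among the other intervals with an annotated end to compare, 64.6% lay within 20 nt and 25.8% more than 20 nt upstream. A share over 5 genes is too coarse to be called alike or different. unc-25 lies at the limit, since its distance reaches 22 nt under another window for the shift. The end nearest to it also belongs to a model with the upstream stop codon, not the downstream stop codon at which the interval started. Whether the annotation drew on these clones is not known here.

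**Figure D4:**
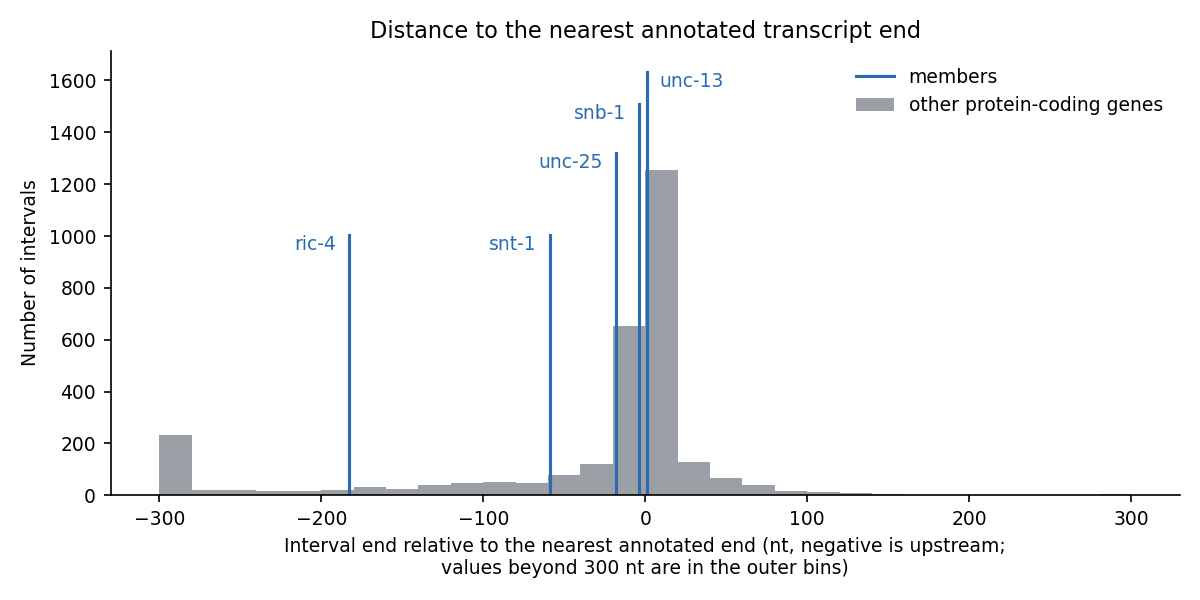
Number of intervals (vertical axis) by distance in nt from the interval's end to the nearest annotated transcript end (horizontal axis, negative is upstream, values beyond 300 nt in the outer bins). The blue lines of unc-13, snb-1 and unc-25 stand near 0, that of snt-1 at −59 and that of ric-4 at −183; the heights of the lines carry no value.

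Recovery was set against the length of the annotated 3′ UTR. All 5 genes with an interval fell among the 6 members with a longest form over 300 and up to 500 nt, and the sixth was eat-4. unc-25 is there by its longest form of 316 nt, while the form with the downstream stop codon, where its interval started, has 169 nt. Of all 1898 protein-coding genes with a longest form over 300 and up to 500 nt, 26.9% (24.9 to 28.9) had an interval at the stop codon. The shares were 24.9% for over 200 to 300 nt, where unc-17 lies, 22.3% for over 500 to 1000 nt, where unc-18 and unc-10 lie, and 23.7% above 1000 nt, where unc-64 lies. Genes with 1 to 100 nt had 9.90%, and genes with no annotated 3′ UTR 2.58%. The shortest interval in the file measured 96 nt, and how far that lower limit sets these low shares was not tested. In the range over 300 and up to 500 nt the members' share was 83.3% (35.9 to 99.6, exact 95% interval, 5 of 6), and the 26.9% of all genes lies below that interval. In the other ranges with a member, 0 of 1, 0 of 2 and 0 of 1 members had an interval, which is too few to set against the shares of all genes. Over all 10 members the share was 50% (18.7 to 81.3). The shares of all genes in each range with a member lie inside that wider interval. The ranges were chosen with earlier results known, so this is a description and not a test.

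**Figure D5:**
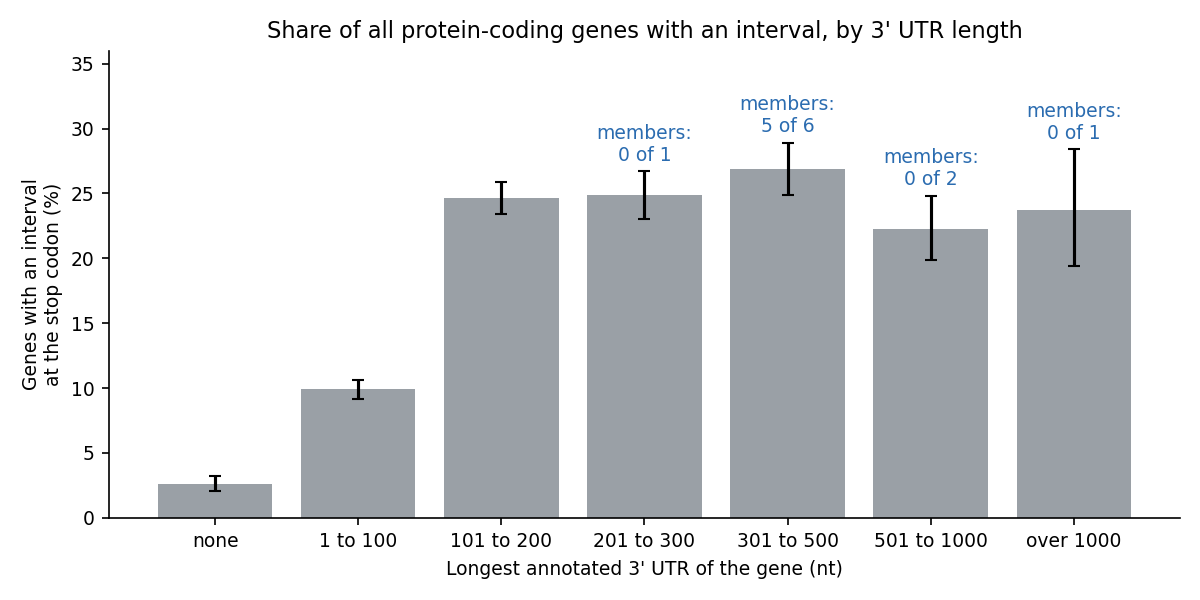
Share of all protein-coding genes with an interval at the stop codon (vertical axis, percent, with exact 95% intervals) by longest annotated 3′ UTR in nt (horizontal axis), with the members counted above the bars. Of the members, 5 of 6 had an interval at over 300 to 500 nt and 0 of 4 outside that range.

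Both members on the X chromosome (unc-18 and unc-10) lacked an interval, both on chromosome V (snb-1 and ric-4) had one, and of the 3 on chromosome III only unc-25 had one. The single members on I (unc-13) and II (snt-1) had one and that on IV (unc-17) had none. Over all genes, 23.3% on III (21.7 to 25), 20.1% on I, 16.8% on II, 16.1% on X (14.8 to 17.6), 15.8% on IV and 11% on V (10.1 to 11.9) had an interval at the stop codon. With 1 to 3 members on a chromosome, their counts are too small to compare with this order.

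A wider list of 78 further genes of the same processes, without the 10 above, had 3′ intervals in 21 (26.9%, 17.5 to 38.2), against 21.2% of all protein-coding genes. In 18 of them (23.1%, 14.3 to 34.0) an interval started at the stop codon, against 16.4% of all genes. Both shares of all genes lie inside the intervals of the list. Genes of vesicle fusion and its regulation had them in 8 of 22 (36.4%), active zone and calcium channel genes in 4 of 13 and vesicle membrane and recycling genes in 4 of 14. In transmitter pathways, 2 of 8 glutamate genes, 2 of 10 monoamine genes and 1 of 6 acetylcholine genes had one. For GABA the count was 0 of 5, which allows a share of up to 52.2%. The exact 95% intervals of these shares overlap one another.

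The 18 intervals held a median of 276.5 nt after the stop codon, with a range of 82 to 477 nt. The longest were those of rbf-1, which encodes rabphilin (477 nt), syd-2, the liprin-α gene of presynaptic assembly (426 nt), and unc-104, the kinesin-3 that carries vesicle precursors along axons (404 nt). The intervals of rbf-1 and syd-2 also covered 3′ ends of neighbouring genes (isw-1 and F59F5.5), and that of rbf-1 ran 259 nt past its own annotated end. Intervals were given to genes by position alone, so to which gene this edge belongs was not determined. The shortest were those of tdc-1, the tyrosine decarboxylase gene (82 nt), syx-4, a syntaxin gene (102 nt), and scm-1 (138 nt). The interval of tdc-1 also covered the 3′ end of gei-14. Only syx-4 had more than 1 interval, the other being 204 nt long and lying almost wholly over coding exons.

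Of the 18, 7 ended within 20 nt of an annotated end, 7 more than 20 nt upstream and 4 more than 20 nt downstream. The share within 20 nt was 38.9% (17.3 to 64.3) in this list, against 64.6% of the other intervals, and the share upstream was 38.9% (17.3 to 64.3), against 25.8%. The other intervals were limited to those at the stop codon of exactly 1 gene, and the 18 were not, so the shares are not fully alike in make-up. All 4 counted as downstream (rbf-1, sph-1, syd-2 and tbh-1) also covered the 3′ end of a neighbouring gene, and syd-2 passed the limit by little, at 22 nt (9 to 22). Of the 7 upstream, cla-1, an active zone gene, stands at 4440 nt because its only annotated end belongs to models with another stop codon. The 246 nt after the stop codon in the interval of cla-1 lie wholly in an annotated intron. rab-3, the small GTPase of synaptic vesicles, ended 210 nt upstream (II, 5721950 to 5722318, 369 nt long), against 183 nt in ric-4. egl-19, the L-type calcium channel gene, ended 662 nt upstream, with 161 nt after the stop codon. vglu-2, a relative of eat-4, ended 4 nt upstream after 336 nt, and the glutamate reuptake transporter gene glt-1 1 nt downstream after 283 nt. These genes were named after their values had been seen.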

How the data were processed

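RNA of mixed-stage N2 worms was analysed as 1 library, since only the first of 2 runs in the labels, the one of minipools, has an interval list here. The list has 6 columns. The authors' deposited score column is 0 in each row and was not used. Only the chromosome, start and end of each row were used, so genes were assigned without regard to the strand of an interval. Starts and ends are positions, while assembler, aligner, filters and build are not stated in any label or header. The annotation was Ensembl release 115 (WBcel235), and no coordinate was taken from another build. Shifts up to 6000 nt were tried in centred windows of 1 Mb, widened to 2 or 3 Mb below 20 intervals, and the one with the largest overlap with 3′ UTRs was kept. An interval counted as 3′ if it covered at least 10 nt of a stop codon or 3′ UTR, or started at most 60 nt before the end of a stop codon. Distances are genomic. For annotated ends, only transcripts with a 3′ UTR were used. The members and lists were chosen with earlier results of these data known. Named from the wider list (2 of its 80 symbols had no gene) were the genes with more than 1 interval and the 3 longest and 3 shortest after the stop codon, besides those marked in the text. The procedure was tested on simulated intervals that ran from near a stop codon to an annotated end. Early ends, intronic intervals and genes with more than 1 stop codon were not simulated. Shares have exact Clopper-Pearson 95% intervals. No test was run, since there is 1 library. A planned search for poly(A) signals was not run, because no genome sequence was used here. Python 3.11.15, numpy 2.4.6, scipy 1.17.1 and matplotlib 3.10.9 were used.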

Additional observations from a re-analysis of the deposited data

How the results depend on the processing

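Under 8 alternatives, the number of the 10 genes with a 3′ interval was 5 in each except without a shift, where it was 6 because 20 nt of eat-4 were covered. The wider list had 19 to 21. With overlaps of 1 or 50 nt, windows of 2 or 3 Mb, fixed tiles, stop codon distances or a start limit of 120 nt, no distance at the 5 genes moved by more than its range of near-equal shifts. Without a shift, snb-1 ended 15 nt downstream of the annotated end, against 4 nt upstream with the shift, and had 462 nt after the stop codon, and ric-4 ended at −158 nt with 194 nt after it. snt-1 then started 97 nt ahead of the last base of the stop codon and unc-25 missed it, so neither gave a distance. The list holds 1 library, so no replicate could be left out. The read depth is unknown, and absence of an interval may mean no primer, no product or no contig, which cannot be told apart.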
